A study of Mus musculus with 9 samples.

Results

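The genes described here are the mouse 2-5A synthetases and their close relatives: Oas1a, Oas1b, Oas1c, Oas1g, Oas2, Oas3, Oasl1 and Oasl2. They were taken by symbol, and 7 of the 8 had a row among the 21676 genes of the deposited tables. Oas1b, which RefSeq's GRCm38.p6 gene table classes as a transcribed pseudogene, is not analysed here. The 9 RNA-seq libraries came from cultured B16, a mouse melanoma line, in 3 groups of 3 replicates: a control hairpin (labelled shCotrol) and the hairpins shAD4-1 and shAD4-2, which the series design describes as knockdown derivatives. The series title names ADGRL4, an adhesion G protein-coupled receptor, so the comparisons ask how transcripts differ between cells with these hairpins and cells with the control hairpin. All groups carried a hairpin, each hairpin is represented by a single derivative line, and no group without one was analysed here. Adgrl4 is not analysed here, so the labels carry no check from the targeted gene.

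An OAS protein that binds double-stranded RNA joins ATP into short oligoadenylates with an unusual linkage, known as 2-5A. 2-5A in turn sets off the breakdown of single-stranded RNA of the virus and of the cell, which slows viral growth and translation. Interferon raises OAS transcription through a complex that includes STAT2 and IRF9 and binds a DNA element called the interferon-stimulated response element (ISRE). The mouse has a single Oas2 and Oas3 and several copies of Oas1, some of which have lost the ability to make 2-5A.

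Oas1a, Oas1c and Oas1g share a 16-base element before their start sites, and the promoter stretches that show it are given first. RefSeq promoter windows of GRCm38.p6, which run from 250 bases before a gene's start to 50 after it, were found for 6 of the 8 genes (Oas1a, Oas1c, Oas1g, Oas3, Oasl1 and Oasl2) and for the paralogues Oas1f and Oas1h. The ISRE core was searched on both strands as GAAANNGAAA, and capitals mark its matches. Each stretch below has 60 bases, and the 3 that carry the full element were cut so that it stands at the same place. Counted from the RefSeq start, the element lies at bases -20 to -5 in Oas1a, -18 to -3 in Oas1g and -114 to -99 in Oas1c. The stretch of Oas1c is on the strand opposite to the gene. Those of Oas1h and Oas1f are the placements, without gaps, most like the stretch of Oas1a.
Oas1a (chr5:120907526-120907585, minus strand): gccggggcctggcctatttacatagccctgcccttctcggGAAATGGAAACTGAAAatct
Oas1g (chr5:120887612-120887671, minus strand): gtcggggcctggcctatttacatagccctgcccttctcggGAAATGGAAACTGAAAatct
Oas1c (chr5:120812573-120812632, plus strand): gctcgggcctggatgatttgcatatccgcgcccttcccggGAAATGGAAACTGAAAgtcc
Oas3 (chr5:120777715-120777774, minus strand): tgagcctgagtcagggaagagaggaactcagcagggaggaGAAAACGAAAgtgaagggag
Oas1h (chr5:120861334-120861393, plus strand): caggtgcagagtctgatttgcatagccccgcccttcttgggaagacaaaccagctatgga
Oas1f (chr5:120847269-120847328, plus strand): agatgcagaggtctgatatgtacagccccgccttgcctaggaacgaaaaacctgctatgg
The stretches of Oas1a and Oas1g were equal at 59 of 60 bases, and that of Oas1c at 48. Those of Oas1h and Oas1f equalled Oas1a at 34 and 27 of 60 bases and at 8 and 7 of the 16 bases of the element. For Oas1f the next best placement reached 25 bases, so its placement is uncertain.

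The ISRE core had 2 overlapping matches in the windows of Oas1a, Oas1c and Oas1g and 1 in that of Oas3. It had none in those of Oasl1, Oasl2, Oas1f and Oas1h. Of all 32851 windows of the table, 3.44% held it. The 16 bases GAAATGGAAACTGAAA, a sequence picked from these promoters, occurred in 7 windows of 5 genes: Oas1a, Oas1c, Oas1g and the apolipoprotein L genes Apol9a and Apol9b. A gamma-activated site, searched as TTCNNNGAA, matched in the window of Oas1a only among the OAS genes with a window, where 8.30% of all windows held it. These matches describe the letters of the reference sequence.

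Gene counts summed to between 31319244 and 36880496 reads per library. Melanocyte markers (7 genes, Pmel and Tyrp1 among them) summed to 11350 to 13090 CPM (reads per 1000000 counted reads) in control, 9734 to 9964 in shAD4-1 and 10590 to 11560 in shAD4-2. All 7 were lower with shAD4-1 in edgeR's test, and the summed level there did not overlap control. With shAD4-2 they were split: Pmel and Mlana were higher (log2 fold changes 0.46 and 0.19) and Tyr and Tyrp1 lower (-0.61 and -0.33). Dct, Mitf and Sox10 did not pass with shAD4-2. The 4 leukocyte markers with a row summed to 0.11 to 0.318 CPM in control, 2.25 to 3.30 in shAD4-1 and 4.12 to 4.47 in shAD4-2 libraries. Almost all of this was Lyz2, while Ptprc, the pan-leukocyte gene, was at 0 in the control and shAD4-2 libraries. The 3 endothelial markers with a row summed to 0.0639 to 0.289 CPM over the 9 libraries. The 3 fibroblast markers with a row, mostly Pdgfrb, summed to 45.7 to 52.7 CPM in control, 54.5 to 57.6 in shAD4-1 and 44.3 to 51.7 in shAD4-2. The part of these shifts in the results below was not tested. Fewer cells with a transcript and less of it in each cell cannot be told apart in such bulk libraries.

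Summed OAS transcripts were far more abundant in control cells than in either hairpin line, and Oas3 and Oasl1 were scarce in all groups. Summed over the 7 genes, control libraries had 13227, 13573 and 14276 OAS reads. The shAD4-1 libraries had 818, 702 and 643, and the shAD4-2 libraries 333, 279 and 304. As means ± SD (n = 3) the summed levels were 402 ± 15.8 CPM for control, 19.8 ± 2.43 for shAD4-1 and 9.24 ± 0.395 for shAD4-2. The 3 groups did not overlap, and the order control, shAD4-1, shAD4-2 held in every library. The genes were listed with these falls against control known, so the values against control are a description and carry no test. Both comparisons with control use the same 3 control libraries.

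Oas1a (gene ID 246730), an active 2-5A synthetase, was the most abundant of the 7 genes per length in each group. The control libraries held 164, 154 and 159 CPM of it, those of shAD4-1 9.45, 8.52 and 8.16, and those of shAD4-2 4.17, 3.90 and 3.79. The log2 fold change against control was -4.13 (SE 0.06) for shAD4-1 and -5.27 (SE 0.07) for shAD4-2, or 17.5-fold and 38.6-fold lower. Every shAD4-2 library lay below every shAD4-1 library, and both lay far below the controls.

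Oas1g (gene ID 23960), the other active synthetase among these Oas1 copies, had 100.3, 101 and 98.4 CPM in control. It was at 5.37, 4.19 and 3.06 CPM in shAD4-1 and at 2.33, 1.63 and 2.32 in shAD4-2. The log2 fold changes were -4.51 (SE 0.11) and -5.51 (SE 0.13). Like Oas1a, it separated the 3 groups without overlap.

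Reads of Oas1a and Oas1g could not be kept fully apart. In GENCODE M21 transcripts 57.6% of the 50-base stretches of Oas1a, and 40.9% of its 100-base stretches, also occur in Oas1g. How the authors' counting treated reads that fit both is not given in the sources used here. With the 7 Oas1 rows added up, the means ± SD (n = 3) were 279 ± 4.44 CPM for control, 17.3 ± 2.03 for shAD4-1 and 8.13 ± 0.243 for shAD4-2, with log2 fold changes of -3.95 (SE 0.06) and -5.05 (SE 0.07). Oas1c shared 9.83% of its 50-base stretches and none of its 100-base stretches, and Oas2, Oasl1 and Oasl2 shared none of 100 bases.

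Oas1c (gene ID 114643), reported as an Oas1 copy without synthetase activity, kept more of its control level than the other tested OAS genes. Control libraries held 19.6, 20.3 and 20.2 CPM, shAD4-1 libraries 4.66, 4.30 and 4.23, and shAD4-2 libraries 1.46, 2.49 and 2.17. The 3 groups did not overlap. The log2 fold changes were -2.13 (SE 0.12) and -3.25 (SE 0.14), or 4.37-fold and 9.54-fold lower. Oas1a and Oas1c carry the same 16-base element shown above, on opposite strands relative to the gene and at different distances from the start. They differ in the size of their fall.

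Oas2 (gene ID 246728), which has a pair of OAS units in one protein, had 1132, 930 and 1075 reads in the control libraries. It had 25, 34 and 20 in shAD4-1 and 13, 9 and 12 in shAD4-2. The log2 fold changes were -5.35 (SE 0.16) and -6.42 (SE 0.19), or 40.7-fold and 85.4-fold lower. The hairpin values rest on few reads, and the groups did not overlap on the CPM scale.

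Oasl2 (gene ID 23962), an OAS relative with ubiquitin-like repeats, fell the most of the 6 tested genes. Control libraries held 97.7, 88.3 and 82.7 CPM, shAD4-1 libraries 1.91, 1.59 and 1.25, and shAD4-2 libraries 0.631, 0.479 and 0.955. The log2 fold changes were -5.76 (SE 0.12) and -6.96 (SE 0.14). These are 54.2-fold and 125-fold lower levels, and the 3 groups did not overlap.

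Oasl1 (gene ID 231655), which has no synthetase activity and is known to restrain translation of Irf7 mRNA, was scarce in all groups. It had 59, 69 and 72 reads in control, 7, 2 and 7 in shAD4-1 and 2, 4 and 2 in shAD4-2. Its log2 fold changes of -3.65 (SE 0.41) and -4.48 (SE 0.46) carry the largest errors of the 6 genes. It passed the filter on low counts through the control libraries alone, so it had to differ.

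Oas3 (gene ID 246727), the largest of the synthetases, was nearly silent in every group and did not pass the filter on low counts. It had 7, 4 and 11 reads in control, 1, 0 and 0 in shAD4-1 and 5, 0 and 0 in shAD4-2. Over the groups the ratio to control was 0.0426 (exact 95% counting interval 0.00103 to 0.263) for shAD4-1 and 0.235 (0.0694 to 0.635) for shAD4-2, for counting error only. In shAD4-2 all 5 reads came from 1 library, and that library overlapped the controls. Its window is the one with a single match of the ISRE core.

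In edgeR's fit over 13807 genes, 6 of the 8 listed genes were tested, and all 6 were lower with each hairpin. Over all tested genes 32.3% were called lower with shAD4-1 and 34.8% with shAD4-2. The shares called higher were 32.7% and 34.2%. Of the 7 genes with a row, 7 did not overlap control in shAD4-1 and 6 in shAD4-2, where 39.2% and 39.8% of tested genes lay below control without overlap. Nothing is read from these counts, since the falls chose the genes. The sizes ran from -5.76 to -2.13 with shAD4-1 and from -6.96 to -3.25 with shAD4-2, around medians of -4.32 and -5.39, beside medians of -0.01 over all tested genes for both hairpins. The plot of OAS levels by library shows the 6 genes side by side.

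**Figure D1:**
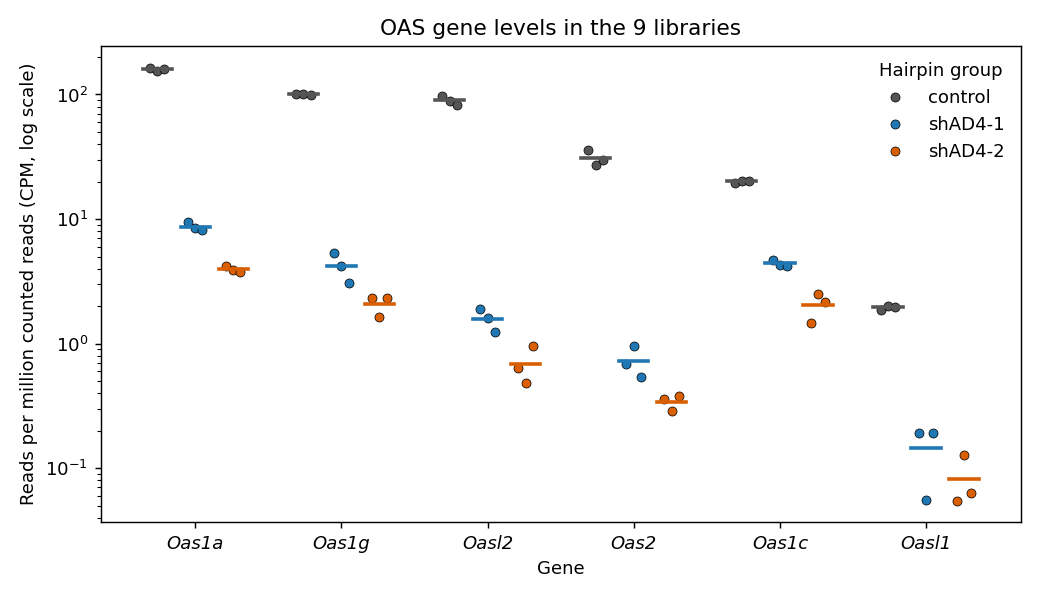
Level of the 6 tested OAS genes in each library, in CPM on a log scale, by hairpin group (points are libraries, bars are means of 3). The controls lie above both hairpin groups for every gene plotted, Oas1c shows the smallest gap, and Oasl1 lies at a few reads in the hairpin libraries.

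The other Oas1 copies were at or near 0 throughout. Oas1d, known from the ovary, had 2, 8 and 3 reads in control, 1, 0 and 1 in shAD4-1 and none in shAD4-2. Over the shAD4-2 group the exact counting interval of its ratio to control, of the kind given for Oas3, reached up to 0.339, for counting error only. Oas1e and Oas1h had 1 read each in all 9 libraries together. Oas1f had 1 read in control and 4 in a single shAD4-2 library. The promoter stretches of Oas1f and Oas1h above lack the element, and Oas1d and Oas1e had no window. Oasl2, without a match of the ISRE core, had 89.6 CPM in control on average. Oas3, with a match, was nearly silent. Whether the element bears on these levels was not tested.

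Per length, the order of the genes shifted between control and hairpin cells. Deposited FPKM values divide by gene length and so allow genes to be compared, though reads shared by Oas1a and Oas1g limit this for that pair. The control means were 81.8 for Oas1a, 49.8 for Oas1g, 28.6 for Oasl2, 8.64 for Oas1c, 7.56 for Oas2, 0.861 for Oasl1 and 0.0434 for Oas3. In control only Oas1c and Oas2 overlapped as neighbours in that order. In both hairpin lines Oas1c moved above Oasl2, where it overlapped Oas1g: in shAD4-1 the means were 4.47 FPKM for Oas1a, 2.09 for Oas1g, 1.90 for Oas1c, 0.504 for Oasl2 and 0.178 for Oas2, and in shAD4-2 2.03, 1.04, 0.879, 0.220 and 0.0839. By control mean FPKM, Oas1a ranked 772nd of the 21676 genes. It ranked 8114th in shAD4-1 and 9741st in shAD4-2.

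As a share of the summed OAS FPKM, Oas1a was almost level, at 46.2 ± 0.790% in control, 48.7 ± 2.41% in shAD4-1 and 47.3 ± 3.34% in shAD4-2 (SD, n = 3). Oas1c made up 4.88 ± 0.240% in control, 20.7 ± 1.54% in shAD4-1 and 20.5 ± 5.57% in shAD4-2. Oasl2 went the other way, from 16.1 ± 0.908% to 5.44 ± 0.503% and 5.07 ± 1.61%, and Oas2 from 4.25 ± 0.508% to 1.93 ± 0.546% and 1.95 ± 0.222%. For Oas1c, Oasl2 and Oas2 no hairpin library overlapped a control library, and the hairpins overlapped each other. These shares come from the same values as the falls and carry no test. The split between Oas1a and Oas1g is limited by the reads they share.

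**Figure D2:**
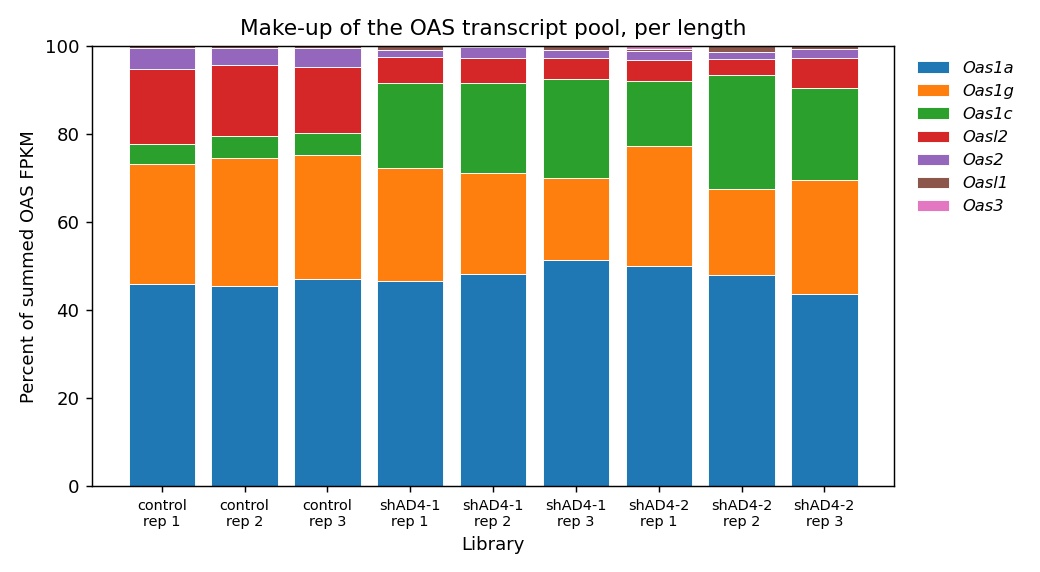
Share of each OAS gene in the summed FPKM of the 7 genes, per library (stacked bars, percent). Oas1a holds close to the same share in all 9 libraries, Oas1c takes more and Oasl2 less in the 6 hairpin libraries.

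The fold changes between the hairpins do not use control levels, though all 9 libraries set the spread behind the SEs and p-values. Without control replicate 1 the genes called over the whole table went from 3777 to 4937, and the adjusted p of Oas1a to 1.21e-10. Here 5 of the 6 tested genes were lower in shAD4-2 than in shAD4-1 and none was higher, where 14.0% of all tested genes were called lower and 13.4% higher (edgeR, Benjamini-Hochberg over 13807 genes). The libraries of 5 of the 7 genes with a row did not overlap, where 22.2% of tested genes lay lower without overlap. The 6 log2 fold changes lay between -1.20 and -0.83, a narrower range than their falls against control. Oas1a was lower by a log2 fold change of -1.14 (SE 0.08, edgeR adjusted p = 6.71e-08) and Oas1c by -1.13 (SE 0.16, edgeR adjusted p = 4.00e-05). For Oas1g the change was -1.0 (SE 0.17, edgeR adjusted p = 0.00035) and for Oasl2 -1.20 (SE 0.24, edgeR adjusted p = 0.000987). With the Oas1 rows summed it was -1.10 (SE 0.08, edgeR adjusted p = 2.53e-08).

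Oas2 was lower by -1.07 (SE 0.32, edgeR adjusted p = 0.0191). Its call was lost without shAD4-1 replicate 2 (adjusted p = 0.106), without shAD4-2 replicate 1 (0.0556) and without shAD4-2 replicate 2 (0.072). With limma on log2(FPKM + 1) it was lost as well, with a minimum (0.335) and without (0.499), and the call of Oasl2 was lost without a minimum (0.0561). Oasl1 did not pass, at -0.83 (SE 0.65, edgeR adjusted p = 0.377), and its libraries overlapped between the hairpins. The groups held 16 and 8 reads, and whether a change of the size seen for the other genes could be detected at this depth was not tested.

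**Figure D3:**
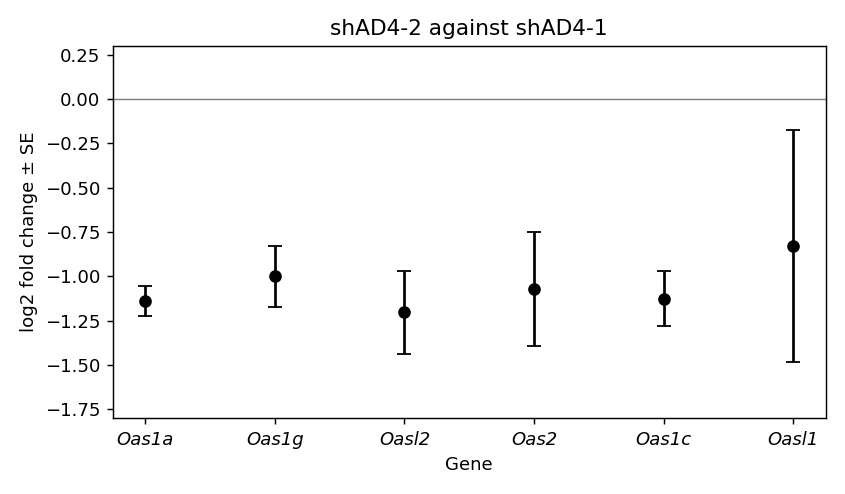
Difference between the hairpins, shAD4-2 against shAD4-1, as log2 fold change (points) with its SE (bars) for the 6 tested OAS genes. The points lie between -1.20 and -0.83, and the error of Oasl1 is the widest.

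Abce1 and Pde12, which act against the 2-5A pathway, rose with both hairpins. Abce1, a ribosome recycling factor, rose from 188 ± 10.9 CPM to 235 ± 4.67 with shAD4-1 and 269 ± 7.55 with shAD4-2 (SD, n = 3), log2 fold changes of 0.39 and 0.57 (edgeR adjusted p = 1.93e-07 and 6.90e-10). It was also higher in shAD4-2 than in shAD4-1, by 0.19 (SE 0.04, edgeR adjusted p = 0.00233). Pde12, a phosphodiesterase that degrades 2-5A, rose from 26.1 ± 0.500 CPM to 43.2 ± 0.995 and 45.1 ± 1.27 (SD, n = 3), or 1.73-fold and 1.80-fold (edgeR adjusted p = 3.78e-10 and 1.20e-10). Akap7, with a phosphodiesterase-like domain, did not pass with shAD4-1 (log2 fold change -0.01, edgeR adjusted p = 0.883). With shAD4-2 it was at -0.16 (edgeR adjusted p = 0.0478), a call lost under 15 of 17 alternatives, at adjusted p up to 0.258.

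Several sensors that share double-stranded RNA with the OAS proteins fell. Of 12 tested sensor genes 9 were lower and 1 higher with shAD4-1, and 9 lower and none higher with shAD4-2, where 32.3% and 34.8% of all genes were called lower and 65.0% and 69.0% in either direction. The medians were -0.89 and -0.98. Zbp1, among the 9 lower genes each time, passed the filter on low counts through the control libraries alone, so it had to differ. Dhx58, the sensor LGP2, went from 59.0 ± 1.22 CPM to 4.64 ± 0.907 with shAD4-1 and 1.95 ± 0.244 with shAD4-2 (SD, n = 3). Ddx58 (RIG-I) fell 4.65-fold and 6.73-fold and Ifih1 (MDA5) 3.79-fold and 5.60-fold (the first value is for shAD4-1). Eif2ak2, the kinase PKR that halts translation, fell 2.34-fold and 2.31-fold.

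Trim25, a ubiquitin ligase of RIG-I, fell 2.04-fold and 2.32-fold, and Adar, which edits double-stranded RNA, 1.68-fold with each hairpin. The sensor-list genes Mavs (edgeR adjusted p = 0.425 and 0.697) and Tarbp2 (edgeR adjusted p = 0.981 and 0.861) did not pass with either hairpin. Ticam1, the adaptor of TLR3, was the only sensor gene called higher. It rose with shAD4-1 (log2 fold change 0.31, edgeR adjusted p = 0.00259) and did not pass with shAD4-2 (0.18, edgeR adjusted p = 0.0614). The second value passed without control replicate 1, control replicate 2 or shAD4-2 replicate 3 (adjusted p = 0.0287, 0.0205 and 0.00617), with the replicate block (0.0238) and with no filter (0.0189). The first was lost with limma on log2(FPKM + 1) without a minimum (0.074).

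Between the hairpins, where 27.4% of all genes were called, 5 sensor genes were lower in shAD4-2 and none higher. Dhx58 differed by -1.25 (SE 0.15, edgeR adjusted p = 6.96e-06), Ifih1 by -0.56 (edgeR adjusted p = 3.46e-05) and Ddx58 by -0.53 (edgeR adjusted p = 2.57e-07). Eif2ak2 and Adar gave 0.02 (SE 0.05) and 0.00 (SE 0.04) there, beside their falls against control. The calls of Trim25 (-0.19, edgeR adjusted p = 0.0296) and Prkra, an activator of PKR (-0.17, edgeR adjusted p = 0.021), were each lost when single libraries were left out. For Trim25 they were shAD4-1 replicates 1 and 2 (adjusted p = 0.101 and 0.134) and shAD4-2 replicates 1, 2 and 3 (0.0849, 0.0662 and 0.0779). The 3 limma fits on log2 FPKM lost the Trim25 call too (0.0579, 0.0516 and 0.127). For Prkra they were shAD4-1 replicates 1 and 2 (0.0698 and 0.0652) and shAD4-2 replicates 1 and 2 (0.0528 and 0.0968).

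Cgas, a DNA sensor whose catalytic fold resembles that of the OAS proteins, had 14.1, 12.7 and 9.54 CPM in the control libraries. It had 9.89, 8.43 and 8.81 with shAD4-1, and 8.48, 10.5 and 10.2 with shAD4-2. Its groups overlapped with both hairpins. It was called with shAD4-1 (log2 fold change -0.36, SE 0.13, edgeR adjusted p = 0.0205), a call lost on leaving out control replicate 1 (0.0975), control replicate 2 (0.078), shAD4-1 replicate 2 (0.0822) or shAD4-1 replicate 3 (0.0611), and with limma on log2(FPKM + 1) without a minimum (0.0787). With shAD4-2 it did not pass (-0.26, edgeR adjusted p = 0.0804), but it passed without control replicate 3 (0.00499) and with no filter on low counts (0.0443). Its adaptor Sting1 did not pass with either hairpin (-0.03 and -0.02, SE 0.06 each, edgeR adjusted p = 0.729 and 0.793).

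Genes around interferon production and signalling, Usp18 among them, moved unequally. Of 13 tested receptor, kinase and factor genes 8 were lower and 2 higher with shAD4-1, and 9 lower and 1 higher with shAD4-2, with medians of -0.63 and -0.71. Over all tested genes 32.3% and 34.8% were lower and 65.0% and 69.0% changed in either direction. The 10 of 13 changed in either direction with each hairpin is near that background. Stat2 fell 4.38-fold and 4.75-fold. Irf9, its DNA-binding partner, fell 2.74-fold and 3.61-fold. Irf7, a factor that amplifies interferon production, fell 12.6-fold and 20.2-fold, and Irf1 2.52-fold and 2.29-fold. Usp18, which damps the interferon receptor and is itself interferon-induced, fell 35.8-fold and 60.3-fold, the most in this list.

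The receptor chains went in opposite directions. Ifnar1 rose from 70.3 ± 1.86 CPM to 79.8 ± 3.07 and 83.8 ± 4.41 (SD, n = 3; log2 fold changes 0.24 and 0.31, edgeR adjusted p = 0.000291 and 2.00e-05). Ifnar2 was 1.55-fold and 1.63-fold lower. Jak1, a kinase bound to the receptor, rose slightly with shAD4-1 (0.13, edgeR adjusted p = 0.00343) and did not pass with shAD4-2 (-0.04, edgeR adjusted p = 0.366). With limma on log2 FPKM the first call was lost and the second value passed. Between the hairpins 5 of the 13 genes were lower in shAD4-2 and none higher, where 14.0% of all genes were lower, among them Irf7 by -0.68 (SE 0.16, edgeR adjusted p = 0.00384) and Irf9 by -0.40 (SE 0.07, edgeR adjusted p = 0.000469).

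Of 10 listed interferon ligands only 4 had a row. Their transcripts were close to the limit of detection, and none passed the filter on low counts. Ifnb1, interferon beta, had 5, 13 and 6 reads in control, 0, 0 and 4 in shAD4-1 and 0, 1 and 0 in shAD4-2. The hairpin libraries lay below the control libraries for this gene. The other 3 ligands with a row, Ifna2, Ifna4 and Ifne, had at most 3 reads in any library.

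**Figure D4:**
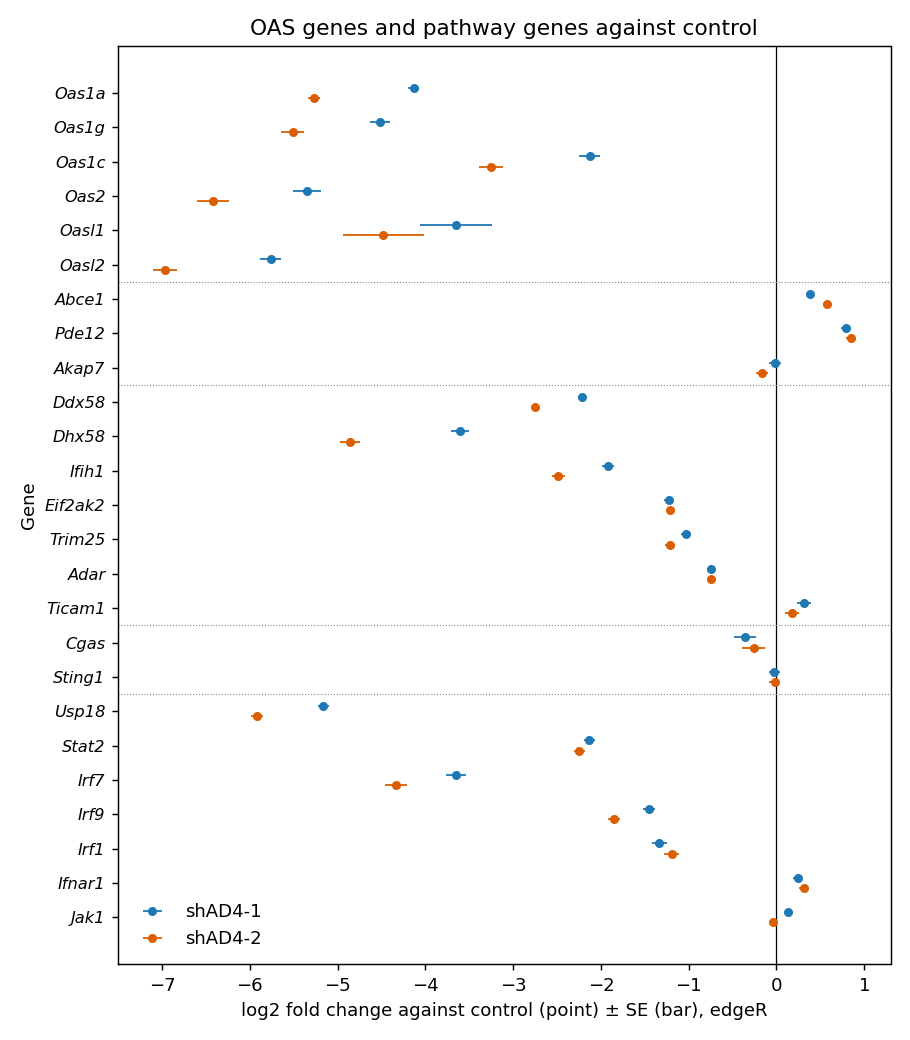
Log2 fold change against control with its SE for the OAS genes and, below the dotted lines, enzymes around 2-5A, RNA sensors, cGAS and STING, and interferon signalling genes, for both hairpins. The OAS genes lie between -6.96 and -2.13, and Abce1 and Pde12 lie above 0 at 0.39 to 0.85.

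The OAS genes lie together on chromosome 5, in an Oas1-Oas2-Oas3 cluster and an Oasl1-Oasl2 cluster, and the tested neighbours outside the clusters changed less against control. Of the 12 nearest neighbours with a row, 3 on each side of each cluster, only 4 were expressed enough to be tested. Rph3a, a synaptic vesicle protein next to the Oas1 copies, was lower by a log2 fold change of -0.91 (SE 0.20, edgeR adjusted p = 0.0007) and -1.70 (SE 0.22, edgeR adjusted p = 1.60e-06), from 3.68 ± 0.221 CPM in control (SD, n = 3). Between the hairpins Rph3a differed by -0.79 (SE 0.23, edgeR adjusted p = 0.0154) without overlap, close to the difference of Oasl1. Ptpn11, the phosphatase SHP2 on the same side, stood at 0.04 (edgeR adjusted p = 0.352) and rose by 0.25 with shAD4-2 (edgeR adjusted p = 2.04e-06). Beside the Oasl genes, 2210016L21Rik fell by 0.50 with each hairpin. Rasal1, on the Oas2 side, did not pass (0.22 and -0.38, edgeR adjusted p = 0.554 and 0.303).

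The genes whose course over the 9 libraries was most like the median course of the tested OAS genes were Ifit3, Gbp6, Ifi204, Ifi211 and Sp110. Likeness was the root mean square difference, in log2 CPM centred on the control mean, from the median of the 6 tested OAS genes. The log2 CPM carried a prior count of 2 reads, and 13801 genes were compared. Ifit3, an antiviral protein of the interferon-induced IFIT family, differed by 0.208 and Gbp6, a guanylate-binding protein, by 0.327. Ifi204, Ifi211 and Sp110 differed by 0.379, 0.389 and 0.417. None of these had more than 8 reads in a hairpin library, so the prior count weighs on their distances. The fitted log2 fold changes of Sp110, -5.65 and -6.44, lay below the OAS medians of -4.32 and -5.39. Within the family Oas1g and Oas1a were nearest to the OAS median course, at 0.167 and 0.168. The median of 6 genes is the mean of the middle pair. By fold change against control these were Oas1g and Oas1a, so their nearness follows from the measure. Oas2, Oasl1 and Oasl2 lay at 0.752, 1.14 and 1.21, farther off than the 5 genes named, and Oas1c was farthest, at 1.80. Ifit3 went from 391 ± 12.01 CPM to 21.9 ± 1.59 with shAD4-1 and 10.2 ± 1.46 with shAD4-2 (SD, n = 3). The 5 genes were picked for this likeness, so their values carry no test.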

How the data were processed

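RNA-seq of 9 B16 libraries was used. Per the submitters' processing notes the authors used fastp, HISAT2 and HTSeq with build GRCm39; the sources used here give no versions, read length or strand setting, so overlapping and near-identical genes may share reads. The authors deposited whole-number read counts and FPKM per gene, with columns named for a control and 2 knockdown groups, matched to the hairpins by number. All nonzero FPKM values gave whole gene lengths (within 0.001) from the deposited counts. CPM here divides counts by the column total.

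Counts were tested with edgeR 4.0.16 in R 4.3.3: filterByExpr, TMM, glmQLFit and glmQLFTest over all 9 libraries by group, Benjamini-Hochberg over 13807 genes, threshold 0.05. SE is the log2 fold change over the square root of F. On simulated counts for shAD4-2 against shAD4-1 (13807 genes), 98% of 2-fold changes were recovered, with 18 false calls. The changed genes were drawn above a minimum of mean reads that Oas2 and Oasl1 did not reach in shAD4-1, so this rate does not cover them. P-values measure the spread between libraries of single lines. Promoters are RefSeq's (GRCm38.p6), transcripts GENCODE M21's.

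The genes and lists were chosen with earlier results of these data known. Also named were the 2-5A enzymes, the 5 most alike genes, ligands with at least 10 reads in a library and cluster neighbours. Other lists gave up to 6 genes each with the smallest adjusted p and those called against their list. Ifnar2, Prkra, Zbp1, Mavs, Tarbp2 and the other ligands were named after their values were seen. Some genes that this rule names are not reported here, though counts over the lists include them. Alternatives were RLE scaling, DESeq2 1.42.0, no filter, a replicate block, each library left out, limma 3.58.1 on log2 FPKM with pseudocounts of 1 and 0.1, with or without requiring 1 FPKM in 3 libraries, and summed Oas1 rows.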

Additional observations from a re-analysis of the deposited data

How the results depend on the processing

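Each of the 6 tested OAS genes stayed lower in both hairpin groups than in control, and lower in shAD4-2 than in shAD4-1, under every alternative that gave it a value. The number of OAS genes called between the hairpins was 5 of 6, and 3 with limma on log2(FPKM + 1) without a minimum, where the pseudocount exceeds most hairpin values; leaving out single libraries gave 4 to 5. The same pseudocount shrinks the fold changes against control by construction: Oas2 went to -2.85 and -2.97 and Oasl1 to -0.81 and -0.85. Of 31 tested pathway genes, 24 and 23 were called against control, Zbp1 among them, and 11 between the hairpins. Over all tested genes the shares called were 65.0%, 69.0% and 27.4%, so the counts against control are near that background. With single libraries left out the pathway genes called numbered 23 to 24, 22 to 24 and 9 to 11. Over all genes, calls were 8968 and 9522 against control and 3777 between the hairpins, with 8372 to 9206, 8985 to 9704 and 2785 to 4937 when single libraries were left out.

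Same-numbered libraries did not deviate together (r from -0.124 to 0.002, beside -0.069 to 0.11 for libraries with different numbers). Whether same-numbered libraries were grown or prepared together cannot be told from this, and the labels do not say. With the replicate block 8833 and 9375 genes were called against control and 3511 between the hairpins, and the OAS genes called stayed at 5. Depth limits Oas3 and Oasl1, with 22 and 200 reads over the controls.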
